A study of Homo sapiens with 15 samples.

Results

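Late addition of elesclomol to bortezomib was examined by comparing the 3 libraries of the delayed combination with the 3 libraries of bortezomib alone, which are 6 of the 15 libraries of the series. They were chosen by their treatment labels only, and no measured value entered the choice. Every library came from femoral bone marrow of SCID-beige mice into which MM.1S cells had been injected by vein. MM.1S is a single established human multiple myeloma line, used here with green fluorescent protein and luciferase reporters.

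The bortezomib mice were given 0.25 mg/kg into the peritoneum once a week. In the delayed combination the same bortezomib schedule was joined, from 14 days after each mouse entered the study, by elesclomol at 25 mg/kg under the skin. The other groups were PBS, elesclomol alone at 25 mg/kg, and the combination, in which both drugs at these doses were given from the start. Each group held 5 treated mice, 3 tumours per group were sequenced, and no further tie between a library and a mouse was given, so p-values measure the spread between these samples. By the labels marrow was taken at paralysis, but severe toxicity was a second endpoint, and which one each mouse reached is not given. Neither the days each mouse had spent on elesclomol nor the time from the last dose to collection is given in the labels. SCID-beige mice lack working T and B lymphocytes and have weak natural killer cells, but keep erythroid, myeloid, vessel and stromal cells.

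Bortezomib blocks the chymotrypsin-like site of the proteasome, the protease that myeloma cells rely on to clear the proteins left over from antibody secretion. Elesclomol is a small molecule that carries copper into cells and on to mitochondria, where the ferredoxin FDX1 reduces the metal. Copper overload is known to damage lipoylated and iron-sulfur proteins, and heat shock genes, metallothioneins and the haem oxygenase HMOX1 are classic markers of metal and protein stress.

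Total counts were 5458022 to 8449749 in the bortezomib libraries and 11060930 to 13161087 in the delayed combination, so that the groups did not overlap in depth. Genes of mitochondrial DNA took 35.0% to 40.3% of the counts over the 15 libraries. Plasma cell markers, which define the myeloma cells, summed to 14848 to 15571 CPM (counts scaled to a fixed library size) with bortezomib and to 15639 to 17556 CPM in the delayed combination. Correlations of log2 levels between libraries of a group were 0.959 to 0.977 with bortezomib and 0.968 to 0.982 in the delayed combination. Bortezomib 1, combination 1 and delayed combination 2 stood apart on the first principal component, which held 32.9% of the variance, and favoured GC-rich genes (correlation of a library's deviation with GC content 0.51, 0.49 and 0.32).

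Late elesclomol gave no gene that passed the test against bortezomib. With edgeR's quasi-likelihood test and p adjusted by Benjamini-Hochberg, 0 of 13085 tested genes (0%) passed a threshold of 0.05. Without adjustment, 460 genes (3.52%) had a p under 0.05, of which 167 (1.28%) were higher and 293 (2.24%) lower with late elesclomol. In 875 genes (6.69%) the groups were separate, meaning that no library of one lay within the range of the other, 370 of them (2.83%) higher and 505 (3.86%) lower with late elesclomol. DESeq2 called 6 genes: PPP1R15A, KLF6, JUN, RGS2 and RHOB as lower and 1 gene without a symbol as higher. Limma voom with quality weights called 4, PPP1R15A, H1-10 and TMEM178B as lower and ANKRD37 as higher, while without a filter on low counts edgeR called 25. Leaving out bortezomib 1 gave 4 calls (TIPARP, PELI1, NR4A2 and BCL2L11, all lower). Leaving out delayed combination 1 gave 5, of which H1-10, H1-10-AS1 and TMEM178B were lower and ANKRD37 and the collagen COL12A1 higher. With the deeper libraries thinned to the smallest total, 0 genes passed. All log2 changes below are late elesclomol minus bortezomib with the standard error of the fit, n = 3 in each group, and are given as values that did not pass unless stated otherwise. The log2 change had a median of -0.01 and a standard deviation of 0.28 over the tested genes, with 47.6% above 0 and 52.4% below.

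Among genes that averaged 3 log2 CPM or more in whichever group was higher, the 12 smallest p-values were taken, and of these 11 were lower and 1 was higher with late elesclomol. Over all tested genes with an unadjusted p under 0.05, 293 were lower and 167 higher. The 12 were picked by their p, so separate groups among them are not further evidence. PPP1R15A, which encodes the phosphatase subunit GADD34 that restores translation after stress, was at 43.0, 47.5 and 40.2 CPM with bortezomib and at 15.1, 18 and 19.1 CPM with late elesclomol (log2 change -1.33 ± 0.27, adjusted p = 0.813 by edgeR). DUSP1, a phosphatase that switches off stress-activated kinases, was at 134, 189 and 134 CPM against 32.7, 25.4 and 36.2 CPM (-2.28 ± 0.53). KLF6, a zinc finger transcription factor, was at 98.7, 225 and 146 CPM against 65.4, 50.5 and 48.5 CPM (-1.51 ± 0.36). In each of these genes the 3 late elesclomol libraries lay below all 3 bortezomib libraries.

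The promoters of DUSP1 and PPP1R15A each hold a full cyclic AMP response element, the site bound by CREB and ATF family factors, and that of FOS holds its half-site. They were picked as examples of the site after the values were seen, and do not represent all the lower genes: KLF6 and NR4A1, described here too, hold no TGACG in this window. Sequences are from RefSeq (GRCh38.p14, a later build than the GRCh37 of the counts), 250 bases before to 50 after the start, on the gene's strand. Capitals mark TGACGTCA and the half-site TGACG on either strand, and the full site, a palindrome, holds the half-site on both strands. DUSP1 lies at chr5:172771146-172771445 on the minus strand, PPP1R15A at chr19:48872171-48872470 and FOS at chr14:75278578-75278877, both on the plus strand.
DUSP1: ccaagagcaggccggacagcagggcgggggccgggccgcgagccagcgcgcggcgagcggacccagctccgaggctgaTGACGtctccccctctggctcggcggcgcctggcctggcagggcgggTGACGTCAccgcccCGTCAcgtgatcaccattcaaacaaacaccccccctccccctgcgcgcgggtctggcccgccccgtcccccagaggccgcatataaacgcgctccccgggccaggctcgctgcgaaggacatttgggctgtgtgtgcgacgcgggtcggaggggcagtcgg
PPP1R15A: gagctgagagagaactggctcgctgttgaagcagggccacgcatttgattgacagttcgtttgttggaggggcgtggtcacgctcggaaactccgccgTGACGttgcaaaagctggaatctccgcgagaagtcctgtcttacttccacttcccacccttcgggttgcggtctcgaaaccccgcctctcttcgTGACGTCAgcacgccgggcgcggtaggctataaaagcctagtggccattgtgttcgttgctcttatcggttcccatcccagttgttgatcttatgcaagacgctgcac
FOS: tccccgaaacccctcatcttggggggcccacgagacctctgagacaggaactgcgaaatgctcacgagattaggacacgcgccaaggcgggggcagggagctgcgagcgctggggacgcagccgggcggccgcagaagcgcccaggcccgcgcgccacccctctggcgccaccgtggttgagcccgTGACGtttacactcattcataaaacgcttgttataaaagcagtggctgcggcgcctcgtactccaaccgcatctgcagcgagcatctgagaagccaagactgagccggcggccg
TGACG was present in 11 of the 19 matched promoters of the 23 tested immediate early genes (57.9%), against 25.0% of 27305 RefSeq promoter windows of this length. TGACGTCA was present in 2 of the 19, DUSP1 and JUND, against 1.98% of all windows, and the AP-1 site TGANTCA in 1 of the 19 against 7.76%. The CArG box (CC, a run of A or T, then GG) was present in 1 of the 19, EGR1, against 1.29% of all windows. All of these are matches of letters in a 300-base window.

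RHOB, a small GTPase of the actin cytoskeleton that is itself quickly induced, was at 185, 176 and 157 CPM with bortezomib and at 105, 59.0 and 65.8 CPM with late elesclomol (-1.17 ± 0.27). RGS2, which shortens signalling through G proteins, was at 81.0, 206 and 139 CPM against 44.0, 64.5 and 51.8 CPM (-1.41 ± 0.34, adjusted p = 0.882 by edgeR). OTUD1, a deubiquitinase, was at 9.89, 22.2 and 11.1 CPM against 6.03, 5.47 and 7.13 CPM (-1.21 ± 0.30, adjusted p = 0.831 by edgeR). The groups did not overlap in these genes either. TIPARP, an ADP-ribosyltransferase, was at 70.9, 123 and 108 CPM against 66.6, 53.7 and 64.4 CPM (-0.70 ± 0.16). There the groups were separated narrowly, because bortezomib 1 was far below the other bortezomib libraries.

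Smaller differences among the 12 lowest p-values were in NFATC2IP (-0.33 ± 0.08), the transcription factor ETV6 (-0.42 ± 0.11, adjusted p = 0.945 by edgeR), TMEM178B (-0.92 ± 0.21) and the linker histone H1-10 (-0.64 ± 0.16). H1-10 was at 404, 344 and 400 CPM against 318, 211 and 205 CPM, and its antisense neighbour H1-10-AS1 had a log2 change of -0.68 ± 0.17. The strand setting of the counting is not given in the sources used here, so reads of these neighbours cannot be told apart. ANKRD37, a hypoxia-inducible ankyrin protein, was the 1 gene of the 12 that was higher, at 123, 109 and 87.8 CPM with bortezomib and 131, 206 and 181 CPM with late elesclomol (0.69 ± 0.15). Its 3 late elesclomol libraries all lay above the bortezomib ones, the lowest by a narrow margin. Adjusted p by edgeR was 0.813 for the 9 genes of the 12 beside OTUD1, RGS2 and ETV6.

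**Figure D1:**
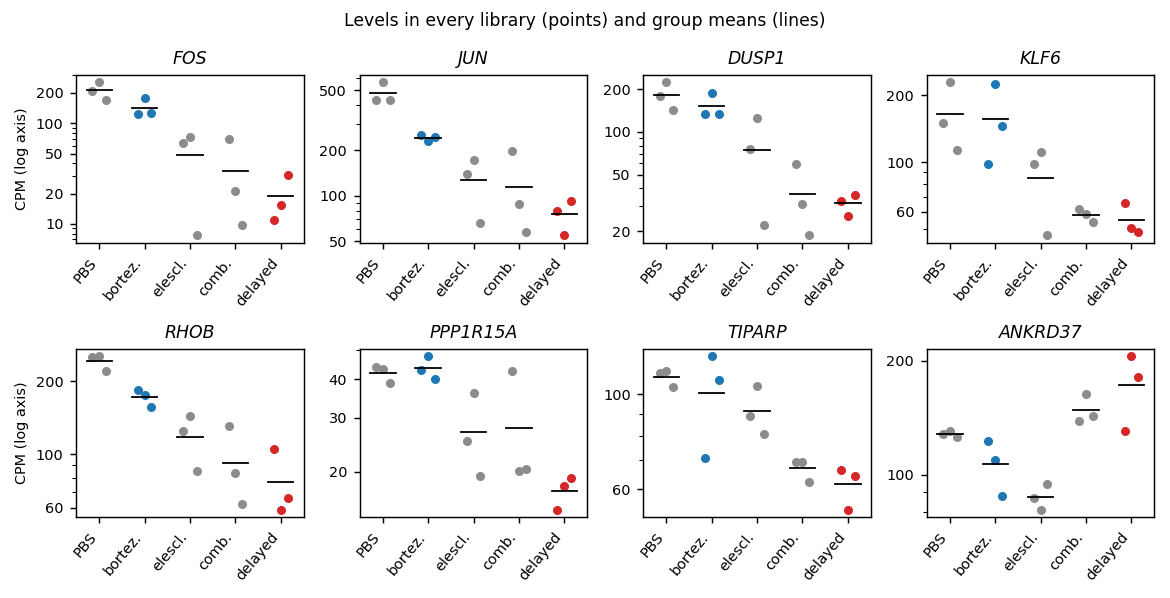
CPM on a log axis of 8 genes in every library (points) with group means (lines), for PBS, bortezomib (blue), elesclomol, the combination and the delayed combination (red), n = 3 in each group. In all 8 panels the red points lie on 1 side of the blue points. They lie below them for FOS, JUN, DUSP1, KLF6, RHOB, PPP1R15A and TIPARP, and above them for ANKRD37. Combination 1 lies above the other combination libraries for FOS, JUN, DUSP1, RHOB, PPP1R15A and, narrowly, KLF6.

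Immediate early genes are a class that needs no new protein to be induced, and many encode transcription factors of the AP-1, EGR, NR4A and KLF families. Of 27 listed genes found, 23 had enough counts to be tested, 19 had a log2 change below 0 and the median was -0.91, beside -0.01 over all tested genes. For 13 of the 23 (56.5%) every late elesclomol library was below every bortezomib library, which held for 3.86% of all tested genes, and 15 had an unadjusted p under 0.05 in that direction, beside 2.24% of all genes. None of the 23 passed after adjustment (0%). Without bortezomib 1, delayed combination 2 and combination 1, the GC-rich libraries, the groups were separated in this direction in 17 of the 23, beside 16.4% of all tested genes. Leaving out 1 of the 6 libraries at a time gave 14 to 16 of the 23, beside 5.79% to 11.9% of all genes. The median of the list lay between -1.16 and -0.73 under the alternatives.

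Among AP-1 subunits, FOS was at 125, 176 and 127 CPM with bortezomib and at 10.9, 15.3 and 30.9 CPM with late elesclomol (-2.90 ± 0.78). JUN was at 251, 233 and 246 CPM against 79.9, 54.8 and 93.1 CPM (-1.68 ± 0.42, adjusted p = 0.958 by edgeR), and FOSB at 17.7, 59.3 and 24.0 CPM against 3.6, 5.2 and 12 CPM (-2.27 ± 0.70). JUND followed with 69.8, 80.6 and 52.5 CPM against 37.6, 25.1 and 38.6 CPM (-1.0 ± 0.29). In these 4 subunits the highest late elesclomol library was below the lowest bortezomib library. The groups overlapped for JUNB (-0.62 ± 0.35) and FOSL2 (-0.52 ± 0.21).

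EGR1, a zinc finger factor induced through ERK signalling, was at 41.3, 46.9 and 36.4 CPM with bortezomib and at 7.62, 8.11 and 14.1 CPM with late elesclomol (-2.06 ± 0.61). The orphan nuclear receptor NR4A1 was at 7.82, 15.1 and 11.1 CPM against 2.85, 3.19 and 3.49 CPM (-1.82 ± 0.64), and NR4A2 at 3.57, 14.2 and 8.69 CPM against 3.26, 2.83 and 2.51 CPM (-1.59 ± 0.39). The groups were separate for these 3 genes, narrowly so for NR4A2. KLF4, a factor of the KLF family, had -1.61 ± 0.45, IER3 -1.33 ± 0.32 and IER2 -0.72 ± 0.26, all without overlap. ZFP36, which speeds the decay of mRNAs with AU-rich elements, was at 55.8, 53.6 and 50.05 CPM against 42.2, 34.9 and 44.4 CPM (-0.39 ± 0.18), again without overlap.

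Other members were not lower, or had groups that overlapped. MYC was at 639, 451 and 530 CPM with bortezomib and at 586, 549 and 662 CPM with late elesclomol (0.15 ± 0.13), the antiproliferative gene BTG2 at 471, 364 and 421 CPM against 384, 436 and 451 CPM (0.02 ± 0.15), and IER5 had 0.13 ± 0.30. CCN2, a matrix-linked growth factor, was the fourth above 0 (0.47 ± 0.45), at 2.27 CPM or less in all 6 libraries. EGR2 (-0.48 ± 0.54), EGR3 (-0.91 ± 0.58), ATF3 (-0.89 ± 0.35) and KLF2 (-0.73 ± 0.37) were below 0 with groups that overlapped. EGR2 and EGR3 were below 3 CPM in all 6 libraries.

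The same list had a median of -0.73 for elesclomol alone against PBS, -0.59 for the combination against bortezomib and -0.17 for bortezomib against PBS, beside medians over all tested genes of 0.00, -0.01 and 0.02. The combination and the delayed combination share the bortezomib libraries, so these medians are not independent of the one above. For FOS the combination libraries were at 69.9, 21.2 and 9.74 CPM, and for DUSP1 at 59.3, 31.0 and 18.6 CPM. Combination 1, a GC-rich library, was the highest of the 3 in both.

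ERK is a kinase pathway upstream of many immediate early genes. Of 17 tested genes of its output and feedback, 10 were below 0 and the median was -0.05. The ERK phosphatase DUSP6 was at 64.2, 31.8 and 39.5 CPM with bortezomib and 51.2, 64.2 and 54.3 CPM with late elesclomol (0.32 ± 0.21). SPRED1, an inhibitor of RAS signalling, had 0.48 ± 0.15, DUSP2 -0.21 ± 0.23 and PHLDA1 -0.05 ± 0.16, and the groups overlapped in all 4. IER3, counted in both lists, was the 1 of 17 lower with separate groups, beside 3.86% of all tested genes.

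**Figure D2:**
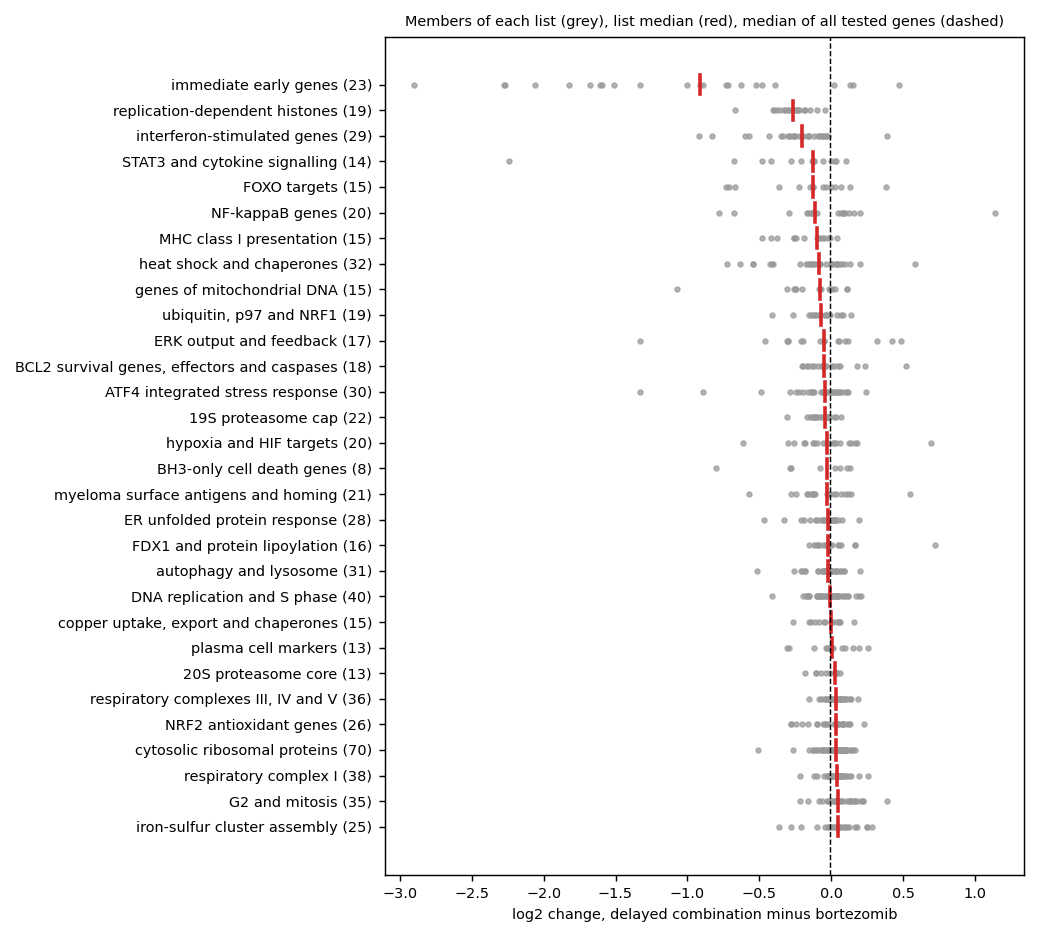
Log2 change, late elesclomol plus bortezomib (delayed combination) minus bortezomib, of each tested gene (grey points) in 30 gene lists with the number tested in brackets, the median of each list (red bar) and the median of all tested genes (dashed line). Immediate early genes have the lowest median, at -0.91, and the medians of the other 29 lists lie between -0.26 and 0.05.

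FDX1 and the main copper transporters differed by less than the spread between libraries. FDX1 was at 25.9, 22.5 and 29.5 CPM with bortezomib and at 25.3, 25.0 and 27.2 CPM with late elesclomol (-0.01 ± 0.12). The copper importer SLC31A1 was at 61.1, 49.5 and 52.3 CPM against 46.4, 50.9 and 51.0 CPM (-0.14 ± 0.13), and the copper exporter ATP7A at 25.0, 34.7 and 30.4 CPM against 28.6, 28.8 and 32.3 CPM (0.00 ± 0.13). The groups overlapped in all 3 genes. Copper uptake, export and chaperone genes had 6 of 15 above 0 and a median of 0.00, and no member had separate groups.

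FDX1 and protein lipoylation genes had 7 of 16 above 0 and a median of -0.02. FDXR, the reductase that passes electrons to FDX1, was at 1.26, 2.29 and 1.51 CPM against 2.93, 2.55 and 2.84 CPM (0.73 ± 0.41), with separate groups at a low level. Iron-sulfur cluster assembly genes had 17 of 25 above 0 (median 0.05), with CIAO3 at 0.29 ± 0.14 and NDOR1 at -0.37 ± 0.15. Of 11 metallothioneins found, 0 had enough counts to be tested. MT1X was at 0.46 to 0.76 CPM with bortezomib and 0.84 to 1.0 CPM with late elesclomol, separate at a low level, and MT2A was at 0.38 CPM or less in all 6 libraries. HMOX1 was at 2.53, 0.61 and 3.4 CPM against 1.09, 2.73 and 1.54 CPM (-0.28 ± 0.48), so that the groups overlapped. NRF2 antioxidant genes had 15 of 26 above 0 and a median of 0.03.

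Heat shock genes and chaperones had 20 of 32 below 0 and a median of -0.08, which was 0.01 without bortezomib 1. In 4 of the 32 (12.5%) the late elesclomol libraries were below every bortezomib library, beside 3.86% of all tested genes, and no member passed. HSP90AA1, the stress-inducible HSP90, was at 87.8, 101 and 134 CPM with bortezomib and at 64.0, 75.1 and 82.3 CPM with late elesclomol (-0.54 ± 0.15). The co-chaperone BAG3 was at 13.5, 9.90 and 11.5 CPM against 7.62, 9.75 and 6.73 CPM (-0.54 ± 0.22), and the small heat shock protein HSPB1 had -0.42 ± 0.20. By contrast the groups overlapped for the main inducible HSP70 gene HSPA1B, at 76.7, 49.1 and 42.9 CPM against 19.7, 52.9 and 30.2 CPM (-0.72 ± 0.57), for its cofactor DNAJB1 (-0.41 ± 0.37) and for the constitutive HSPA8 (0.13 ± 0.13).

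Proteasome genes are raised by cells when proteasome activity falls. The 20S core had 7 of 13 above 0 (median 0.03) and the 19S cap 3 of 22 above 0 (median -0.04, and 0.04 without bortezomib 1), and in neither list did any gene have separate groups. PSMB5, which encodes the subunit that bortezomib binds, was at 30.03, 23.2 and 25.7 CPM against 22.4, 32.6 and 25.7 CPM (0.03 ± 0.18). Ubiquitin, p97 and NRF1 genes had 15 of 19 below 0 (median -0.07). Autophagy and lysosome genes had 19 of 31 below 0 (median -0.02), among them MAP1LC3B (-0.52 ± 0.15, separate groups), while the cargo receptor SQSTM1 had -0.21 ± 0.15 with overlap.

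In the ATF4 integrated stress response, 18 of 30 genes were below 0 and the median was -0.04. Beside PPP1R15A, the transcription factor ATF5 was at 12.4, 8.84 and 10.0 CPM with bortezomib and at 7.70, 8.57 and 6.16 CPM with late elesclomol (-0.49 ± 0.23), with separate groups. Of the genes of the endoplasmic reticulum unfolded protein response, 19 of 28 were below 0 (median -0.02). Its sensor ERN1 was at 392, 588 and 533 CPM against 366, 421 and 419 CPM (-0.32 ± 0.13), and the chaperone HSPA5 at 258, 259 and 497 CPM against 220, 255 and 257 CPM (-0.47 ± 0.29), a value set largely by bortezomib 3. XBP1, the factor that drives secretory capacity in plasma cells, was at 2491, 2228 and 2609 CPM against 2736, 2903 and 2753 CPM (0.20 ± 0.10), with separate groups.

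Interferon-stimulated genes stood below 0 in 28 of 29 cases, with a median of -0.20 that stayed below 0 under all 21 alternatives (-0.43 to -0.07). IFIT3, an interferon-induced antiviral protein, was at 6.21, 4.27 and 6.80 CPM with bortezomib and at 3.26, 3.19 and 3.24 CPM with late elesclomol (-0.83 ± 0.25). It was the 1 of 29 lower with separate groups, beside 3.86% of all tested genes. RIGI, a sensor of viral RNA, was the exception (0.39 ± 0.23), at -0.05 when every library was thinned to the same depth. RIGI was the 1 of 29 higher with separate groups, beside 2.83% of all tested genes. MHC class I presentation genes were below 0 in 14 of 15 (median -0.10, and 0.01 without the GC-rich libraries). Replication-dependent histones were below 0 in 19 of 19 (median -0.26, and 0.06 without bortezomib 1). No member of either list had separate groups. The histone gene H2BC11 was at 135, 46.5 and 71.0 CPM against 52.1, 61.8 and 46.0 CPM (-0.67 ± 0.35) and H1-3 at 321, 161 and 217 CPM against 189, 189 and 162 CPM (-0.38 ± 0.19). In both, bortezomib 1 was the highest of the 6. The histone median changed sign without that GC-rich library, as given above, and was 0.05 without the 3 GC-rich libraries. The cause was not tested.

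SOCS3, the feedback inhibitor of STAT3 signalling, was at 8.74, 2.29 and 10.6 CPM with bortezomib and at 2.26, 1.37 and 0.89 CPM with late elesclomol (-2.24 ± 0.71), separate by a narrow margin. NFKBIZ, a nuclear regulator of NF-kappaB, was at 23.5, 36.6 and 23.2 CPM against 19.5, 15.7 and 13.2 CPM (-0.78 ± 0.21). STAT3 and cytokine genes had 10 of 14 below 0 (median -0.13) and NF-kappaB genes 11 of 20 (median -0.11, and 0.07 without delayed combination 1). Among hypoxia genes, 11 of 20 were below 0 (median -0.03), and the repressor BHLHE40, opposite in sign to ANKRD37, was at 35.3, 28 and 30.8 CPM against 17.9, 21.1 and 22.5 CPM (-0.62 ± 0.25).

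BCL2L11, which encodes the cell death activator BIM, was at 164, 433 and 417 CPM with bortezomib and at 198, 168 and 215 CPM with late elesclomol (-0.80 ± 0.30). The groups overlapped because bortezomib 1 was low, and without that library the log2 change was -1.13 (adjusted p = 0.0437 by edgeR). That call came from leaving out the library that disagreed, so it is not separate support. With PBS, BCL2L11 was at 183, 154 and 124 CPM. Of the 8 BH3-only genes tested, 4 were below 0 (median -0.03). FOXO targets had 11 of 15 below 0 (median -0.12), and 2 of the 15 were lower with separate groups, beside 3.86% of all tested genes. FBXO32, a ubiquitin ligase subunit known from muscle wasting, was at 10.0, 15.5 and 16.6 CPM against 8.28, 8.93 and 8.27 CPM (-0.71 ± 0.24) and the factor FOXO3 at 58.9, 70.5 and 59.9 CPM against 55.2, 52.7 and 53.9 CPM (-0.23 ± 0.09), both separate, whereas SESN1 was in the other direction (0.38 ± 0.15, overlap).

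Nuclear genes of respiratory complex I had 25 of 38 above 0 (median 0.04), those of complexes III, IV and V 25 of 36 (median 0.03) and genes of mitochondrial DNA 4 of 15 (median -0.08, and 0.10 without bortezomib 2). Cytosolic ribosomal protein genes had 50 of 70 above 0 (median 0.04), and G2 and mitosis genes 28 of 35 (median 0.05), while DNA replication and S phase genes were split 20 and 20. Without bortezomib 2 the medians were -0.03 for complex I, -0.05 for complexes III, IV and V and -0.01 for ribosomal proteins, and without delayed combination 1 that of G2 and mitosis genes was -0.05. Of 13 plasma cell markers tested, 7 were above 0 (median 0.01). SDC1, the surface antigen CD138, was at 1353, 950 and 1186 CPM against 1395, 1090 and 941 CPM (-0.03 ± 0.14), and TNFRSF17, the antigen BCMA, had 0.10 ± 0.11. The plasma cell factor IRF4 had 0.26 ± 0.11 with overlap and its partner gene POU2AF1 was at 203, 174 and 168 CPM against 157, 146 and 142 CPM (-0.29 ± 0.10), with separate groups.

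Markers of marrow cells other than myeloma were followed because the pellets also held mouse cells, whose reads can align to human genes. Summed over 11 endothelial markers, the level was 3.80, 5.48 and 1.89 CPM with bortezomib and 6.36, 13.9 and 12.1 CPM with late elesclomol, so that the groups did not overlap. Of the 3 that could be tested, 3 were above 0 (median 1.39), with the vessel receptor KDR at 0.69, 0.91 and 0.38 CPM against 1.09, 2.92 and 2.84 CPM (1.73 ± 0.67). These 3 were at 0.92 CPM or less in every bortezomib library. The count filter kept them through other libraries, late elesclomol ones included, so it favoured this direction and the 3 are not separate support. Stromal and bone markers summed to 125 to 160 CPM against 134 to 246 CPM. There 8 of 10 tested were above 0 (median 0.44), with the collagen COL3A1 at 7.82, 9.14 and 3.78 CPM against 7.95, 40.3 and 25.0 CPM (1.79 ± 0.56) and SPARC at 36.6, 20.1 and 29.5 CPM against 41.4, 42.0 and 34.1 CPM (0.44 ± 0.18). Delayed combination 1 lay within or near the bortezomib range for these lists, and delayed combination 2 and 3 above it.

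Macrophage markers summed to 28.8 to 34.7 CPM with bortezomib and 19.1 to 81.6 CPM with late elesclomol, and granulocyte markers to 23.7 to 44.6 CPM against 16.3 to 44.0 CPM. Of 7 granulocyte markers tested, 5 were below 0 and the median was -1.21, lower than that of the immediate early genes, but the groups overlapped in all 7. The median was -0.31 without bortezomib 3 and -0.45 after thinning to equal depth. MPO, a neutrophil granule enzyme, was at 0.80, 2.44 and 7.55 CPM against 1.25, 1.28 and 1.22 CPM. Erythroid markers summed to 189 to 204 CPM against 177 to 186 CPM, a sum made up mostly of the transferrin receptor gene TFRC, which myeloma cells express too. TFRC itself was at 153, 162 and 148 CPM against 150, 170 and 148 CPM, so its groups overlapped. Of 5 erythroid markers tested, 3 were above 0 and 2 below, with a median of 0.02. The 2 below 0 had separate groups, beside 3.86% of all tested genes lower in this way, and none of the 5 passed. The haemoglobin gene HBB was at 28.4, 33.8 and 32.3 CPM against 15.9, 10.7 and 24.1 CPM (-0.89 ± 0.77), and ALAS2, which starts haem synthesis in red cells, at 1.03, 2.59 and 2.64 CPM against 0.33, 0.27 and 0.49 CPM (-2.41 ± 1.31). In all 6 libraries 5 of 15 erythroid, 2 of 16 granulocyte, 1 of 14 macrophage and 4 of 9 megakaryocyte markers were at 0. In bulk marrow, fewer cells of a type and less RNA per cell cannot be told apart. Immediate early genes are expressed by marrow cells of many types, and the part of these host cells in the differences above was not tested. In a fit that held the mean host marker level as a covariate, the median of immediate early genes was -0.94, beside -0.91 without it. That level was a mean over host lists whose medians went in different directions. It was 1.99, 2.12 and 2.27 with bortezomib and 1.76, 2.64 and 2.25 with late elesclomol, so the groups overlapped. Such a fit cannot show the part of any host cell type.

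**Figure D3:**
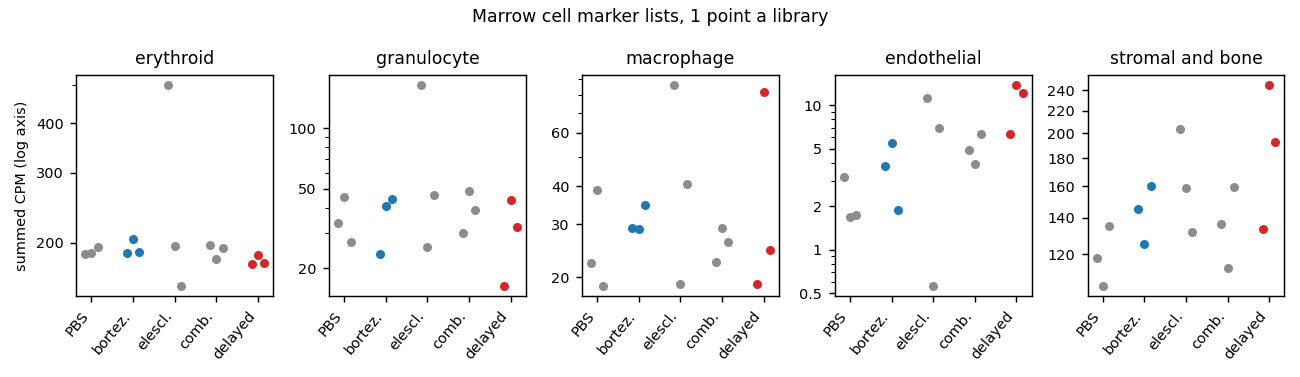
Summed CPM on a log axis of 5 marrow cell marker lists in each library, by group, with bortezomib in blue and the delayed combination in red. Endothelial sums are 1.89 to 5.48 CPM with bortezomib and 6.36 to 13.9 CPM with late elesclomol, and the other 4 lists do not all separate the groups, erythroid sums being lower (177 to 186 CPM against 189 to 204 CPM).

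Whether elesclomol begun late differed from elesclomol given from the start was tested by the delayed combination against the combination. Of 13085 genes, 0 (0%) passed by edgeR's quasi-likelihood test, and DESeq2 and limma voom also called 0. An unadjusted p under 0.05 was reached by 344 genes (2.63%) with edgeR, and the libraries of the groups did not overlap in 993 (7.59%). Immediate early genes had a median of -0.34 in this comparison, beside 0.00 over all tested genes. PPP1R15A was at 42.5, 20.1 and 20.5 CPM in the combination (delayed minus combination -0.69 ± 0.27), FOS gave -0.83 ± 0.75, JUN -0.60 ± 0.42, DUSP1 -0.22 ± 0.52 and KLF6 -0.08 ± 0.36. Combination 1 was the highest combination library in all 5 of these genes. XBP1 was at 2231, 2181 and 2293 CPM in the combination, below all 3 delayed combination libraries (0.32 ± 0.10, adjusted p = 1.0 by edgeR). These differences did not pass, which does not show that the schedules acted alike.

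Whether late elesclomol acted on bortezomib-treated tumours as elesclomol alone acted on untreated ones was tested by the difference of the 2 effects, which share no library. Elesclomol was begun 14 days late in one of them and from the start in the other, so this test cannot tell bortezomib from the schedule. By edgeR's quasi-likelihood test 6 of 13085 genes (0.0459%) passed, 2 (0.0153%) with a positive and 4 (0.0306%) with a negative difference. In all 6 the estimates with elesclomol alone and with late elesclomol had opposite signs, that of NXPE3 with late elesclomol being close to 0. Picking genes by the difference of effects favours opposite signs, so these signs are not a separate finding. DESeq2 called 54 and limma voom 168, all 6 of these genes included in both. With both drugs given from the start, combination minus bortezomib was 0.53 ± 0.16 for HDAC9, 0.81 ± 0.23 for PDZRN4 and -0.20 ± 0.24 for FBXO32. It was -0.08 ± 0.12 for DAPK1, 0.04 ± 0.09 for NXPE3 and -1.26 ± 0.46 for THEMIS2. These values share the bortezomib libraries with those of late elesclomol, and their difference from elesclomol alone was not tested.

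HDAC9, a class IIa histone deacetylase, was at 114, 85.3 and 98.7 CPM with PBS and fell to 44.0, 46.5 and 40.3 CPM with elesclomol alone (-1.19 ± 0.16, adjusted p = 0.00804 by edgeR). It was at 70.5, 58.4 and 44.6 CPM with bortezomib and at 72.1, 62.8 and 82.0 CPM with late elesclomol (0.32 ± 0.16), a difference of effects of 1.51 ± 0.23 (adjusted p = 0.0279 by edgeR). FBXO32 rose from 13.3, 7.16 and 7.44 CPM with PBS to 35.5, 25.6 and 25.0 CPM with elesclomol alone (1.65 ± 0.24, adjusted p = 0.0109 by edgeR), and the difference of effects was -2.36 ± 0.34 (adjusted p = 0.0264 by edgeR). So in both genes elesclomol alone separated the libraries from PBS, and the mean with late elesclomol differed from bortezomib in the other direction. For HDAC9 the late elesclomol and bortezomib libraries overlapped.

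DAPK1, a calcium-dependent kinase linked to cell death, rose with elesclomol alone (0.87 ± 0.12, adjusted p = 0.00804 by edgeR) from 76.8, 70.0 and 71.3 CPM to 137, 133 and 129 CPM. With bortezomib it was at 87.7, 115 and 105 CPM and with late elesclomol at 82.4, 72.4 and 82.4 CPM (-0.37 ± 0.12, difference of effects -1.24 ± 0.17, adjusted p = 0.0264 by edgeR). NXPE3 rose with elesclomol alone (0.78 ± 0.09, adjusted p = 0.00574 by edgeR) from 429, 389 and 399 CPM to 672, 738 and 675 CPM. It was at 482, 564 and 575 CPM with bortezomib and 553, 492 and 536 CPM with late elesclomol (difference of effects -0.81 ± 0.13, adjusted p = 0.0424 by edgeR). For DAPK1 the late elesclomol libraries lay below the bortezomib ones, and for NXPE3 the groups overlapped.

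THEMIS2, an adaptor of B cell and macrophage signalling, was at 1.58, 0.91 and 1.04 CPM with PBS, 5.03, 5.60 and 7.18 CPM with elesclomol alone, 1.5, 2.74 and 6.42 CPM with bortezomib and 1.17, 0.64 and 1.05 CPM with late elesclomol. Its difference of effects was -4.17 ± 0.66 (adjusted p = 0.0316 by edgeR), at a low level throughout. PDZRN4, a PDZ domain RING finger protein, was at 10.6, 9.14 and 11.3 CPM with PBS, 4.42, 4.62 and 3.90 CPM with elesclomol alone, 3.68, 3.96 and 3.97 CPM with bortezomib and 6.28, 5.38 and 8.43 CPM with late elesclomol (difference of effects 2.05 ± 0.31, adjusted p = 0.0279 by edgeR). For PDZRN4 the bortezomib and the elesclomol libraries were all below those of PBS, whereas for THEMIS2 bortezomib 1 lay within the PBS range.

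**Figure D4:**
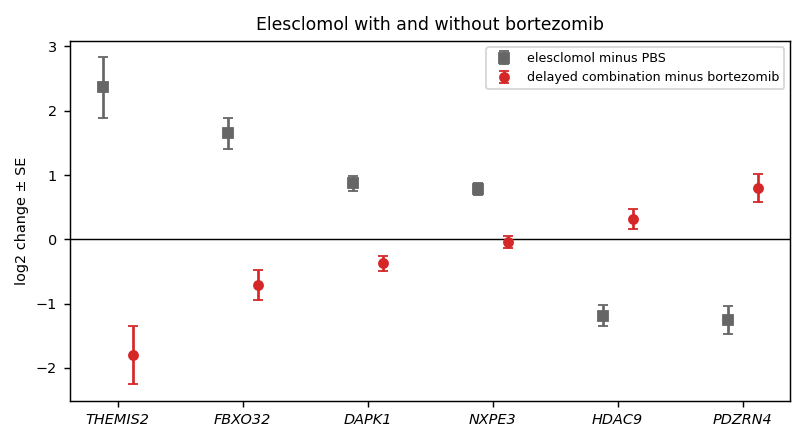
Log2 change ± SE of the 6 genes that passed the test of the difference of effects, for elesclomol minus PBS (grey squares) and the delayed combination minus bortezomib (red circles), n = 3 in each group. THEMIS2, FBXO32, DAPK1 and NXPE3 are above 0 with elesclomol alone and below 0 when it was added late to bortezomib, and HDAC9 and PDZRN4 the other way round.

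These 6 calls were sensitive to single libraries. No gene passed when PBS 2, PBS 3, bortezomib 3, elesclomol 1, elesclomol 2 or delayed combination 3 was left out, 1 passed without PBS 1, 3 without elesclomol 3 and 4 without delayed combination 2, whereas 30 passed without bortezomib 1, 17 without bortezomib 2 and 15 without delayed combination 1. With the mean level of the host markers as a covariate 0 passed. Elesclomol 1 had the highest such level of the 15 libraries (3.47 on the mean log2 CPM scale, the others 1.75 to 2.64), with erythroid markers at 500.2 CPM, and its part in these calls was not tested further. The next smallest adjusted p by edgeR, 0.0534, was that of ANKRD37 (1.24 ± 0.21) and ETV6 (-0.90 ± 0.16), followed by PHLDA1 (1.24 ± 0.23) and DUSP2 (1.76 ± 0.34) at 0.0811. PHLDA1 and DUSP2 fell with elesclomol alone (-1.29 ± 0.17 and -1.97 ± 0.25, adjusted p = 0.00574 for both by edgeR) and with late elesclomol gave -0.05 and -0.21.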

How the data were processed

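Per the submitters' processing notes, STAR 2.5.4b and featureCounts 1.6.1 were used with GRCh37. The deposited values are raw counts for 57773 Ensembl genes in each of 15 total RNA libraries (stranded kit, ribosomal RNA depleted, per the labels' protocols), and 0 lines lack a gene. Strand setting, annotation release and handling of mouse reads: not given in the sources used here. GENCODE 29 named 52338 identifiers, leaving 5435 with 1.07% of counts. Groups follow the titles, and replicates differed by more than sampling noise.

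One edgeR 4.0.16 model (robust quasi-likelihood F test, TMM factors, R 4.3.3) held all libraries (common biological coefficient of variation 0.171). A minimum count of 10 in filterByExpr kept 13085 genes. Passing means p under 0.05 after Benjamini-Hochberg adjustment over these. The standard error is the log2 change over the square root of F, and CPM use TMM-scaled library sizes. The code was tested on simulated counts. Members, 51 gene lists (1137 genes, 1101 found) and the rule for named genes were chosen with earlier results of these data known, so patterns already seen in them are not independent evidence. The rule took every gene that passed (0), the 12 smallest p above a level of 3 log2 CPM in the higher group, up to 3 of the smallest p per described list, 20 fixed genes, and list members as examples. Genes of the other comparisons and alternatives were named after their values were seen. Lists are described, not tested.

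Alternatives were DESeq2 1.42.0, its size factors in edgeR, limma 3.58.1 voom with quality weights, upper-quartile factors, no filter, a mean level of 3 log2 CPM or more, fits of the compared groups alone, replicate blocks, library sizes without abundant genes, thinned counts, a host marker covariate, GC and length offsets (loess, span 0.3, 97.8% of tested genes covered), a 1.5-fold threshold, and omission of the 3 GC-rich libraries or of each library. Counts of immediate early genes with libraries omitted were added after seeing the data. Plots used Python 3.11.15.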

Additional observations from a re-analysis of the deposited data

Results flagged for a closer look

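The change with elesclomol added late to bortezomib differed from that with elesclomol alone, given from the start, in 6 genes, by the test of the difference itself in edgeR's quasi-likelihood model with Benjamini-Hochberg adjustment. The difference, late elesclomol minus bortezomib less elesclomol minus PBS on the log2 scale, was -4.17 ± 0.66 for THEMIS2 (adjusted p = 0.0316), -2.36 ± 0.34 for FBXO32 (adjusted p = 0.0264) and -1.24 ± 0.17 for DAPK1 (adjusted p = 0.0264). It was -0.81 ± 0.13 for NXPE3 (adjusted p = 0.0424), 1.51 ± 0.23 for HDAC9 (adjusted p = 0.0279) and 2.05 ± 0.31 for PDZRN4 (adjusted p = 0.0279). Each group held 3 libraries. None of the 6 passed once host marker level entered the model, at the 1.5-fold threshold, or when PBS 2, PBS 3, bortezomib 3, elesclomol 1, elesclomol 2 or delayed combination 3 was left out.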

How the results depend on the processing

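Against bortezomib the count of genes that passed (0) stayed 0 with other scalings, the higher filter, thinning, the host covariate, GC offsets and the 1.5-fold threshold, and was 25 with no filter, 6 with DESeq2, 4 with voom, 2 with only the groups compared, 2 without the 3 GC-rich libraries, and 0 to 5 with 1 library left out. Those 2 were TIPARP and PELI1, and with only the groups compared DUSP1 and PPP1R15A. Against the combination it was 1 with no filter and otherwise 0, single libraries left out included. The 6 genes of the difference of effects became 133 with no filter, 3 with the higher filter (a mean of 3 log2 CPM or more), 3 after thinning, 0 with host marker level as covariate, 37 without the GC-rich libraries, 54 with DESeq2, 168 with voom, 0 at the 1.5-fold threshold, and 0 to 30 with 1 library left out. The causes were not tested. The replicate numbers do not pair the samples. Correlations of same-numbered bortezomib and delayed combination libraries were -0.09, -0.33 and 0.05, and those of other pairs -0.35 to 0.35. With the replicate number as a block 0 genes passed against bortezomib and 0 against the combination. For the difference of effects 9 passed with the block in all libraries and 0 with the block in only the groups compared. The sign of the log2 change turned in some named genes. FDX1 was 0.0022 with DESeq2 size factors, 0.011 with upper-quartile factors, 0.015 with no filter, 0.0057 with the higher filter, 0.040 after thinning, 0.028 without the GC-rich libraries, 0.0050 with DESeq2, and 0.00077 and 0.0051 with only the groups compared, without and with the block. ATP7A was 0.0062, 0.016, 0.019, 0.0081 and 0.030 under the first 5 of these, 0.0055 with the block, 0.0037 with abundant genes left out, 0.020 and 0.022 with GC offsets without and with the block, 0.0093 with DESeq2, 0.020 with voom, and 0.0051 and 0.013 with only the groups compared. Without the GC-rich libraries PHLDA1 was 0.053, PSMB5 -0.0088, SDC1 0.14 and EGR2 0.11. Voom gave 0.22 for PHLDA1 and 0.50 for EGR2, GC offsets 0.029 for SDC1 (0.020 with the block), and thinning 0.0033 for NXPE3 and -0.055 for RIGI. With 1 library left out, values spanned -0.12 to 0.12 for ATP7A, -0.098 to 0.088 for FDX1, -0.076 to 0.11 for BTG2, -0.36 to 0.0082 for DUSP2, -0.88 to 0.22 for EGR2, -0.72 to 0.11 for HMOX1, -0.15 to 0.41 for IER5, -0.11 to 0.011 for NXPE3, -0.23 to 0.063 for PHLDA1, -0.13 to 0.14 for PSMB5 and -0.20 to 0.098 for SDC1. Medians of immediate early, interferon, ERK, FOXO, STAT3, ubiquitin, iron-sulfur, endothelial and stromal genes kept their sign under every alternative, and those of the other described lists each changed sign in at least 1. For the endothelial genes the count filter favoured that sign, as given above. Over the genes named against bortezomib, 1842 of the alternative values kept direction and call, 56 changed sign and 34 passed where the reported value did not.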
